A study of Mus musculus with 20 samples.

Results

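The transcripts of 10 serotonin receptor genes (Htr1a, Htr1b, Htr1d, Htr1f, Htr5a, Htr2a, Htr2c, Htr4, Htr6 and Htr7) were followed in the striatum of 20 male mice. They were taken by gene symbol from the 39179 genes that the count tables list, and each of them passed the filter on low values, a level above 1 CPM (reads scaled to a common library size) in 3 or more mice. The mice came from generation 17 of a breeding experiment with a High-Active line, selected for activity in the home cage, and a Control line, both founded on a cross of inbred strains. At about 6.5 months of age they received an intraperitoneal injection of saline or of 0.25 mg/kg d-amphetamine sulfate, and the whole bilateral striatum, dorsal and ventral, was dissected 2 hours later. Each combination of line and injection was represented by 5 mice, and these 4 groups are named by line and then injection, as in High-Active saline. There is 1 line of each kind, so an effect of selection and genetic drift between the lines cannot be told apart. By the parents named in the labels, the 10 Control mice came from 8 families and the 10 High-Active mice from 5, and 9 of the latter had a full sibling among the High-Active mice. The methods of the study give each mouse a family of its own, so the labels and the methods differ on this.

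Serotonin reaches the striatum along fibers of the raphe nuclei, whose cell bodies lie in the brainstem and make the transmitter. Apart from a channel-forming family, its receptors are coupled to G proteins. The Htr1 family and Htr5a act through Gi/o proteins, which lower cyclic AMP and open potassium channels, the Htr2 family acts through Gq and phospholipase C, and Htr4, Htr6 and Htr7 act through Gs and raise cyclic AMP. Serotonin receptors on striatal neurons and on the terminals that reach them are known to modulate dopamine release and locomotion, and amphetamine itself releases monoamines.

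The counts on genes totaled 32388971 in the shallowest and 53710713 in the deepest library (median 41703853.5). All levels below are CPM scaled by the trimmed mean of M values (TMM). The 8 marker genes of striatal projection neurons (Drd1, Drd2, Penk and others) summed to 3560 to 5670 CPM per mouse, so the label of the tissue held in each library. Markers of serotonin neurons (Tph2, Slc6a4 and Fev) summed to 0.286 to 0.887 CPM, and none of them passed the threshold. Markers of the tissue around the dissected striatum differed in level between groups. The 9 markers of cortical excitatory neurons summed to 296 to 820 CPM in Control saline, 600 to 824 in Control amphetamine, 163 to 337 in High-Active saline and 218 to 954 in High-Active amphetamine. The 5 markers of the septum summed to 55.6 to 97.6, 40.8 to 106, 101 to 180 and 44.7 to 154 CPM in the same order. In these pieces of tissue, fewer cells of a type and less RNA per cell cannot be told apart.

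Htr1b and Htr2c were the most abundant of the 10 receptor transcripts. On the scale of CPM per kilobase of exon, which allows levels to be compared between genes, Htr1b averaged 17.2 ± 3.41 (SD, n = 20 mice) and Htr2c 10.3 ± 1.45. Htr1b exceeded Htr2c in 20 of 20 mice, and Htr2c exceeded Htr2a in 20 of 20 mice. Htr1b alone made up 35.1% ± 4.68 of the summed level of the 10 receptors, and Htr2c made up 21.2% ± 2.70. Next came Htr2a at 4.18 ± 1.01, Htr1d at 3.49 ± 1.29, Htr7 at 3.24 ± 1.17, Htr1a at 2.91 ± 0.638, Htr5a at 2.51 ± 0.327 and Htr6 at 2.25 ± 0.324 CPM per kilobase. Neighbors in that stretch of the order did not differ beyond their spread, and Htr2a exceeded Htr1d in only 13 of 20 mice. Htr6 stood above Htr4 in 18 of 20 mice and beyond the SD of both. Htr4 at 1.44 ± 0.452 and Htr1f at 1.21 ± 0.267 CPM per kilobase were the lowest and did not differ beyond their spread. The mean level of Htr1b was 14.2-fold that of Htr1f. In CPM not divided by length, Htr2c was above Htr1b, with means of 96.2 and 81.4 over the 20 mice. The order of Htr1b and Htr2c thus rested on the exon lengths used, 4724 and 9328 bases.

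**Figure D1:**
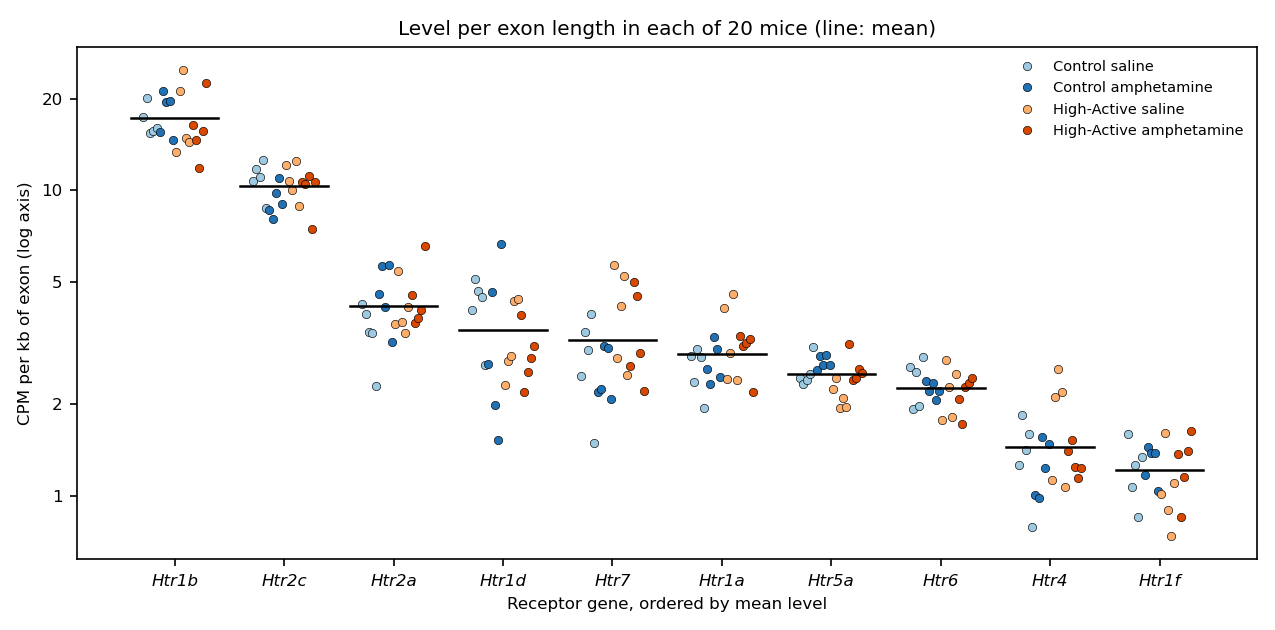
CPM per kilobase of exon (vertical log axis) of each serotonin receptor transcript in each of the 20 mice, colored by group, with a line at the mean. Htr1b, at 17.2, and Htr2c, at 10.3, stand above the other receptors in all 20 mice.

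Among the receptors coupled to Gi/o, Htr1b was the one with deep counts, 2237 to 5278 reads per mouse. It encodes a receptor that sits on nerve terminals and limits transmitter release, and striatal projection neurons are known to make its mRNA. Htr1b (ENSMUSG00000049511, GRCm38 chr9:81628291-81633828, minus strand) averaged 79.9 ± 9.13 CPM in Control saline, 85.4 ± 13.5 in Control amphetamine, 83.7 ± 23.6 in High-Active saline and 76.5 ± 18.6 in High-Active amphetamine mice (SD, n = 5 per group). The 4 groups overlapped. Its exons share 852 bases with D430036J16Rik on the opposite strand, and reads of the pair cannot be told apart without the strand setting of the counting, which is not given in the sources used here. Htr1a (ENSMUSG00000021721, chr13:105443639-105448122, plus strand), the receptor that also restrains the firing of serotonin neurons, ranged from 8.69 to 14.9 CPM in the 10 Control mice and from 9.80 to 20.5 CPM in the 10 High-Active mice, and 3 High-Active mice lay above every Control mouse. Htr1d (ENSMUSG00000070687, chr4:136423524-136444398, plus strand), a terminal receptor like Htr1b and a target of triptan drugs, was the most variable in Control amphetamine mice, from 4.88 to 21.3 CPM (coefficient of variation 60.9%). In the other 3 groups Htr1d stayed between 7.01 and 16.4 CPM. Htr1f (ENSMUSG00000050783, chr16:64924729-65105854, minus strand) rested on 67 to 209 reads per mouse and lay between 1.90 and 4.21 CPM, with means of 2.76 to 3.31 CPM in the 4 groups. Htr5a (ENSMUSG00000039106, chr5:27842149-27855088, plus strand) had the narrowest spread of the 10, a coefficient of variation of 13.1% over all 20 mice at 394 to 832 reads per mouse.

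The Gq-coupled pair differed in level. Htr2c (ENSMUSG00000041380, chrX:146962513-147197277, plus strand) is known for its very high level in choroid plexus and for editing of its mRNA, which counts per gene do not show. It ranged from 69.5 to 117 CPM and averaged 102 ± 13.3 in Control saline, 86.9 ± 10.5 in Control amphetamine, 101 ± 14.0 in High-Active saline and 94.1 ± 14.0 in High-Active amphetamine mice (SD, n = 5 per group). The 12 choroid plexus markers summed to 23.7 CPM in the lowest and 945 CPM in the highest mouse, and the highest mouse of each of the 4 groups was at 282 CPM or more. The 4 mice with the highest sums, 613 to 945 CPM, had Htr2c at 104 to 117 CPM, above its median of 99.5 CPM over the 20 mice. The mouse with the highest Htr2c, Control saline replicate 4 at 117 CPM, had a sum of only 52.1 CPM. Control amphetamine replicate 1, with a sum of 282 CPM, had Htr2c at 80.6 CPM. The part of choroid plexus in the level of Htr2c was not tested. Htr2a (ENSMUSG00000034997, chr14:74640840-74709494, plus strand), a receptor of cortical pyramidal neurons and the target of psychedelic drugs, lay between 12.8 and 36.8 CPM.

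The Gs-coupled receptors all lay below Htr1b and Htr2c. Their mean levels were otherwise mixed with those of the Gi/o receptors. Htr7, at 3.24 CPM per kilobase, was above Htr1a at 2.91 and Htr5a at 2.51, though within their spread. Htr4 (ENSMUSG00000026322, chr18:62324204-62496577, plus strand) averaged 7.06 ± 2.22 CPM over the 20 mice and spread most in High-Active saline mice, from 5.24 to 12.8 CPM. In the 5 High-Active amphetamine mice it stayed between 5.61 and 7.45 CPM. Htr6 (ENSMUSG00000028747, chr4:139061108-139075570, minus strand), whose mRNA is known to be made by striatal projection neurons, averaged 5.27 ± 0.758 CPM and had group means of 5.06 to 5.57 CPM. Htr7 (ENSMUSG00000024798, chr19:35958734-36057507, minus strand), which is known from thalamus, hypothalamus and limbic areas, averaged 11.0 ± 3.97 CPM on 224 to 848 reads per mouse.

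**Figure D2:**
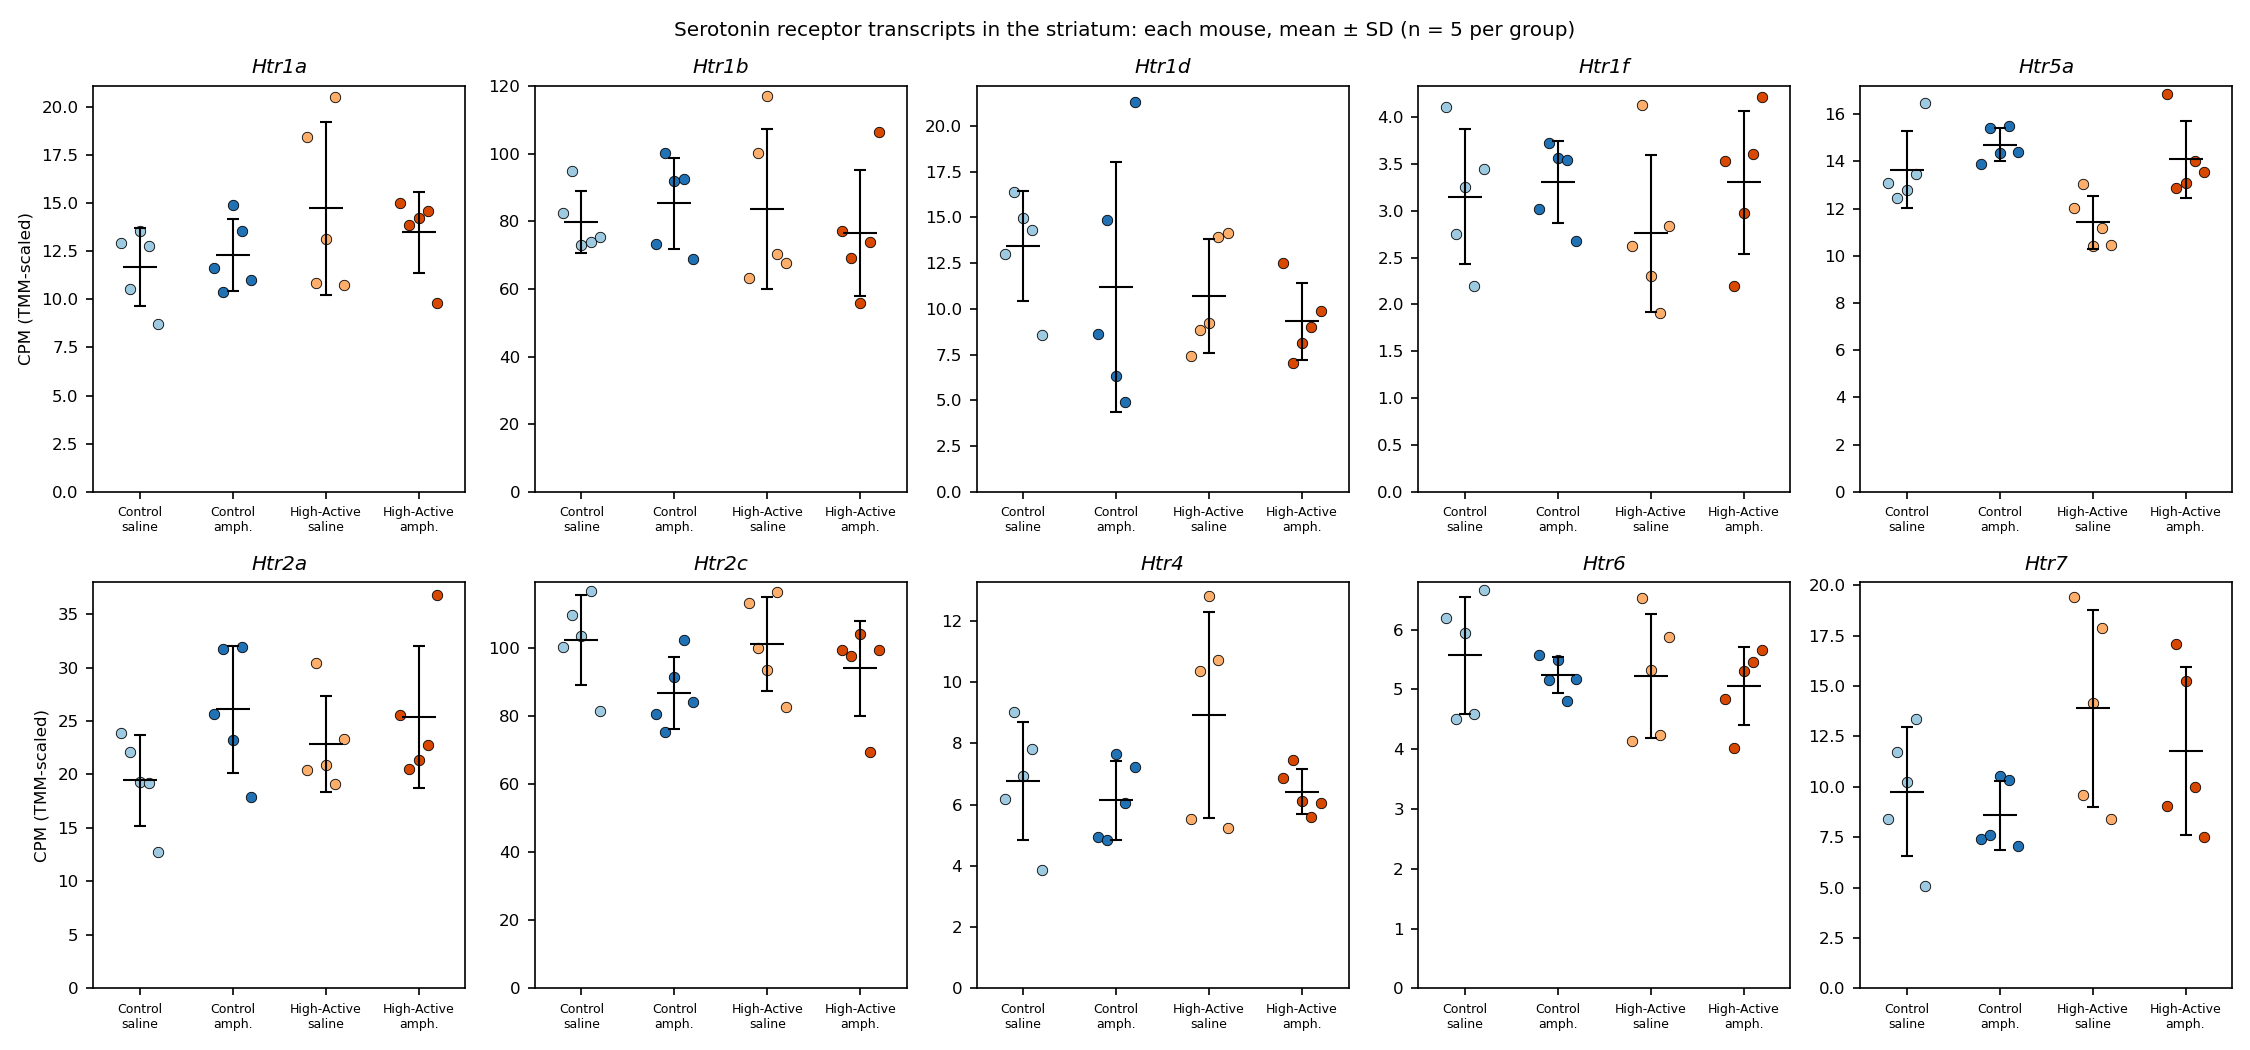
CPM (vertical axis from 0, its own scale in each panel) of the 10 serotonin receptor transcripts in each mouse of the 4 groups, with the mean and SD of 5 mice. For Htr5a 4 of the 5 High-Active saline mice, at 10.4 to 12.0 CPM, lie lowest of all 20 mice, and for Htr7 the 5 highest mice are all High-Active.

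The first comparison asked whether the receptors differed between the lines, averaged over both treatments. No receptor passed the threshold of an adjusted p under 0.1, and Htr5a, with lower values in High-Active mice, and Htr7, with higher values, came nearest to it. At that threshold edgeR's quasi-likelihood test called 0 of the 10 receptors, against 14.5% of all 14792 genes tested. At an unadjusted p under 0.05 it gave 2 of the 10, Htr5a and Htr7, against 26.1% of all genes. In Control mice Htr5a was at 13.1, 12.4, 12.8, 13.5 and 16.5 CPM after saline and at 13.9, 15.4, 14.4, 15.5 and 14.4 CPM after amphetamine. In High-Active mice it was at 12.0, 13.0, 10.4, 11.2 and 10.5 CPM after saline and at 16.9, 12.9, 13.1, 14.0 and 13.6 CPM after amphetamine. Among High-Active mice, 4 of 10 were under the whole Control range, all of them given saline, and 1 was above it. The fitted log2 fold change of Htr5a was -0.16 (SE 0.06, 95% confidence interval -0.29 to -0.03), a level of 0.895-fold (adjusted p = 0.115, edgeR's quasi-likelihood test). Htr7 was at 8.40, 11.7, 10.2, 13.3 and 5.07 CPM in Control saline and at 7.41, 7.60, 10.6, 10.4 and 7.04 CPM in Control amphetamine mice. It was at 19.4, 9.59, 14.2, 17.9 and 8.41 CPM in High-Active saline and at 9.02, 17.1, 15.3, 9.98 and 7.50 CPM in High-Active amphetamine mice. Thus 5 High-Active mice lay above every Control mouse, while the other 5 lay among the Control mice. The fitted log2 fold change of Htr7 was 0.48 (SE 0.20, 95% confidence interval 0.07 to 0.89), a level of 1.40-fold (adjusted p = 0.127, edgeR's quasi-likelihood test). DESeq2 called both receptors, with an adjusted p of 0.092 for Htr5a and 0.0813 for Htr7, where it called 19% of all genes. The likelihood-ratio test with robust dispersions called Htr7 (adjusted p = 0.0836) beside 15.3% of all genes, and limma-voom with family as a random block called 0 receptors. These calls also changed when single mice were left out. Over all genes, such fits called 1381 to 2535 for line, the most without Control saline replicate 4, against 2149 with all mice. Htr5a passed without High-Active saline replicate 2 (adjusted p = 0.0661) or High-Active amphetamine replicate 1 (adjusted p = 0.0418). Htr7 passed without Control saline replicate 4 (adjusted p = 0.0845), High-Active saline replicate 2 (adjusted p = 0.0921), High-Active saline replicate 5 (adjusted p = 0.0767) or High-Active amphetamine replicate 5 (adjusted p = 0.0867).

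The other receptors were further from the threshold. Htr1a had a log2 fold change of 0.23 (95% confidence interval -0.03 to 0.50, adjusted p = 0.256 by edgeR's quasi-likelihood test) and Htr1d of -0.30 (-0.76 to 0.17, adjusted p = 0.42). For Htr1b the interval of the fold was 0.811 to 1.16, for Htr2c it was 0.917 to 1.17 and for Htr6 it was 0.826 to 1.10. The adjusted p of the remaining members, Htr1b, Htr1f, Htr2a, Htr2c, Htr4 and Htr6, lay between 0.408 and 0.85. With the cortical score the signs of Htr1f (0.15), Htr2c (-0.07), Htr4 (-0.08) and Htr6 (0.06) turned. With the septum score those of Htr1b (0.13) and Htr1f (0.04) turned. Over the 10 receptors 5 fold changes were positive and 5 negative without these scores, with a median log2 fold change of 0.0023, against -0.00093 over all genes tested. The median size of the log2 fold change without its sign was 0.13 for the receptors and 0.084 for all genes.

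Bases before the RefSeq start of Htr5a and Htr7 are shown because these are the receptors nearest to the threshold between the lines. The annotated start of Htr5a lies further downstream, at chr5:27842149. The RefSeq start was found in 0 annotated transcripts of Htr5a and in 5 of Htr7. Both windows are from RefSeq promoters on GRCm38.p6, cut to the bases outside annotated exons, written in the direction of transcription with each CG pair in capitals. The Htr5a window is chr5:27841697-27841946 on the plus strand, 250 bases with 13 CG pairs, and the Htr7 window is chr19:36057508-36057610 on the minus strand, 103 bases with 19 CG pairs.
Htr5a: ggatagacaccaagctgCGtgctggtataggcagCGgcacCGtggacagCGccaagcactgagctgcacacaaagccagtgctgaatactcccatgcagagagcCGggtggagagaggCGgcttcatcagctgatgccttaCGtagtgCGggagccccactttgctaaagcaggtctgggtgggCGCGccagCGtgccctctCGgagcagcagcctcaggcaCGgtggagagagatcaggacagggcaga
Htr7: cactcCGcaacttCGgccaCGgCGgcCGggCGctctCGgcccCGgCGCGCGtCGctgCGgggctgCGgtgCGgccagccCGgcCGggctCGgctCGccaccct
Over the full 250 bases before the RefSeq start, Htr7 had a GC content of 82% with 41 CG pairs, Htr6 of 70.8% with 23 and Htr5a of 62% with 13. For Htr7 the full stretch, chr19:36057361-36057610, runs past the shown window into annotated exons. Those of Htr1a, Htr1f and Htr2a also reach past the annotated start of the gene. The median of 27025 promoters was 52% with 6 CG pairs, and 6 other receptors, Htr1a, Htr1b, Htr1d, Htr1f, Htr2a and Htr2c, had 49.2% to 55.6% with 4 to 7. Motifs were searched on both strands of these 250 bases in 9 receptors. The GC box GGGCGG was in Htr1a, Htr1d, Htr2a and Htr6, and in 32.9% of all promoters. The cyclic AMP response element TGACGTCA was in none of the 9 and in 1.62% of all promoters. Its core TGACG, which any full element also holds, was in Htr7 alone and in 17.9% of all promoters. The Htr7 match was not within the 103 bases shown. The TATA letters TATAAA were in none of the 9 and in 13% of all promoters. These matches are descriptions of letters in the 250 bases searched.

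Levels of Htr7 and Htr5a are set here beside the markers of neighboring tissue. The highest Htr7 level, 19.4 CPM, was in the mouse with the highest septum sum, 180 CPM, and the 5 highest Htr7 mice had septum sums of 116 to 180 CPM. High-Active saline replicate 5, with a septum sum of 126 CPM, had Htr7 at 8.41 CPM, within the Control range. All 5 High-Active saline mice, at 101 CPM or more, had higher septum sums than every Control saline mouse, at 97.6 CPM or less. Htr5a was at 14.0 CPM in the mouse with the highest cortical sum, 954 CPM, and at 10.4 CPM in the mouse with the lowest, 163 CPM. The mouse with the highest Htr5a, 16.9 CPM, had a cortical sum of 787 CPM, and a mouse with a sum of 175 CPM had Htr5a at 13.0 CPM. Of the 9 cortical markers 3 were called lower in High-Active mice and 0 higher (median log2 fold change -0.74), and of the 5 septum markers 0 were called (median log2 fold change 0.65). With the cortical score (the mean log2 CPM of its markers) as a covariate the line log2 fold change of Htr7 was 0.19 and that of Htr5a -0.09. With the choroid plexus score it was 0.36 for Htr7 and -0.15 for Htr5a. With the septum score it was 0.22 for Htr7 and -0.10 for Htr5a, and with the cortical and septum scores together it was 0.07 for Htr7 and -0.06 for Htr5a. The cortical and septum scores overlapped with line, so the line and the makeup of the tissue cannot be told apart. The 2 fits with the septum score were chosen after seeing the data.

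**Figure D3:**
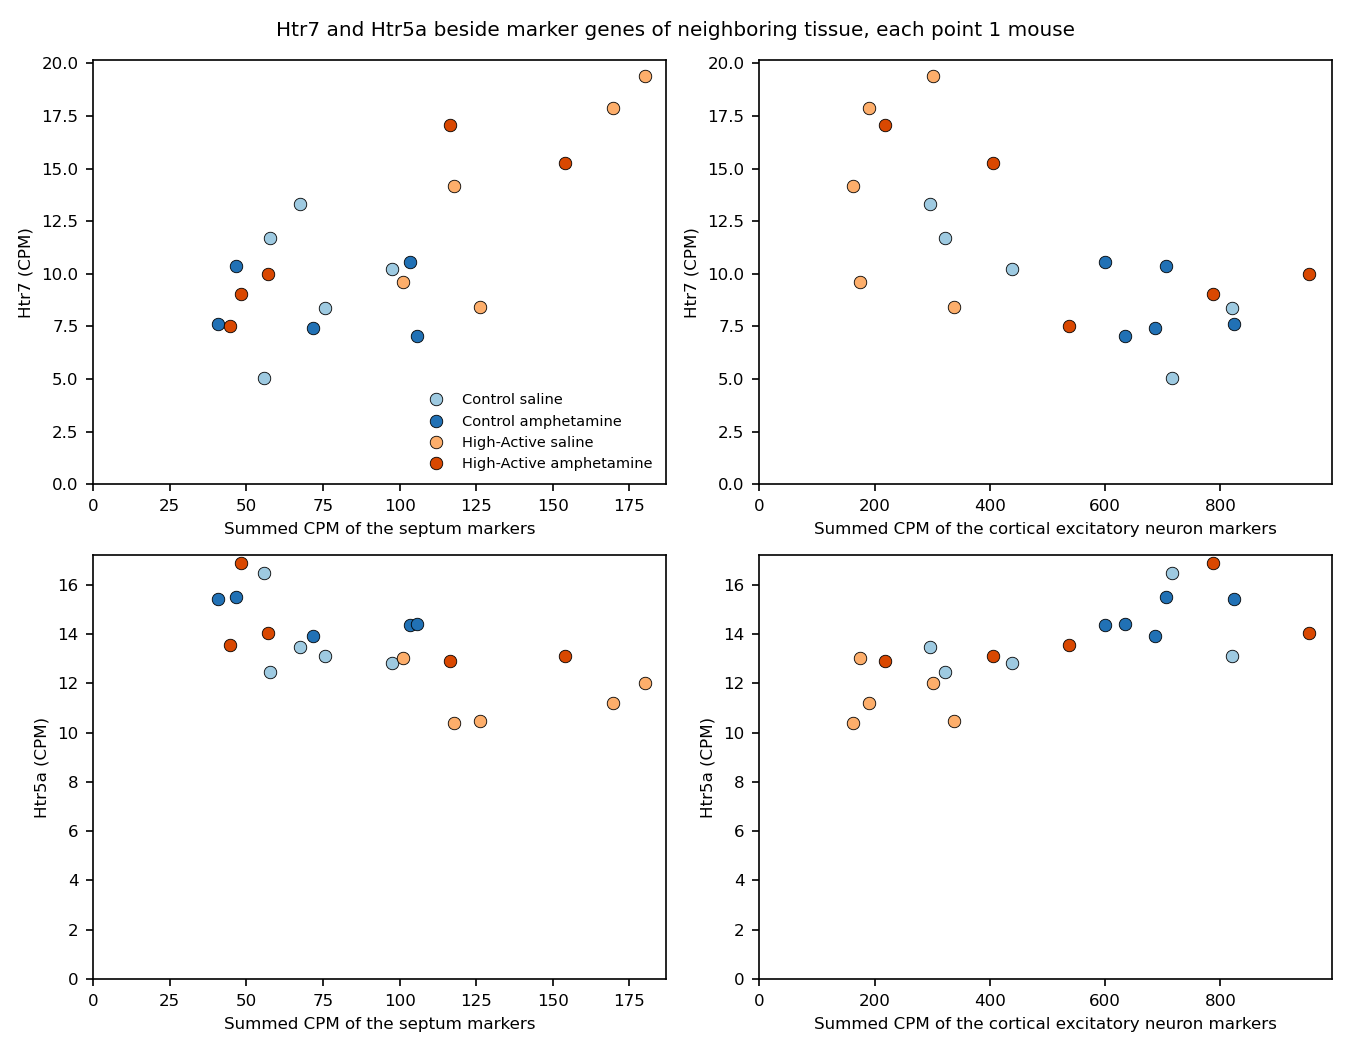
CPM of Htr7 (top) and Htr5a (bottom) in each mouse against the summed CPM of the septum markers (left) and of the cortical excitatory neuron markers (right), colored by group, with all axes from 0. The 5 mice with the highest Htr7, all High-Active, have septum sums of 116 to 180 CPM, and 4 of the 5 High-Active saline mice, whose cortical sums are 163 to 337 CPM, have the lowest Htr5a.

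The second comparison asked what amphetamine changed within 2 hours, averaged over both lines. No receptor passed: edgeR's quasi-likelihood test called 0 of the 10 at an adjusted p under 0.1, where it called 0% of all genes. The smallest adjusted p of any gene was 0.166. At an unadjusted p under 0.05 it gave 2 of the 10, Htr5a and Htr2a, against 12.5% of all genes. Htr5a had the smallest p of the 10 and rank 267 among 14792 genes. Its fitted log2 fold change was 0.20 (SE 0.06, 95% confidence interval 0.07 to 0.34), a level of 1.15-fold after amphetamine (adjusted p = 0.215). Each of the 10 amphetamine mice, at 12.9 CPM or more, lay above the saline median of 12.6 CPM, but only 1 of them lay above every saline mouse. DESeq2 called Htr5a alone of the 10 (adjusted p = 0.0855) beside 2.64% of all genes, and the likelihood-ratio test and limma-voom called 0 of the 10. The cortical markers also had higher levels after amphetamine, with a median log2 fold change of 0.87, though 0 of 9 were called. With their score as a covariate the log2 fold change of Htr5a was 0.12 (adjusted p = 0.984), and with the cortical and septum scores together it was 0.11 (adjusted p = 0.972).

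Htr2a after saline was at 23.9, 22.1, 19.3, 19.2 and 12.8 CPM in Control mice and at 20.4, 30.5, 20.8, 19.1 and 23.3 CPM in High-Active mice. After amphetamine it was at 25.6, 31.7, 23.2, 31.9 and 17.9 CPM in Control mice and at 25.5, 20.6, 21.3, 22.8 and 36.8 CPM in High-Active mice. The treatments overlapped, with 3 of 10 amphetamine mice above every saline mouse. Its log2 fold change was 0.29 (95% confidence interval 0.0043 to 0.57, adjusted p = 0.397). It was 0.42 when fitted in Control mice alone and 0.15 in High-Active mice alone. Htr2c had the opposite sign, with a log2 fold change of -0.17 (-0.35 to 0.0041, adjusted p = 0.415), and 2 of 10 amphetamine mice lay above its saline median. Htr4 had a log2 fold change of -0.31 (-0.66 to 0.04, adjusted p = 0.471), which was 0.10 with the cortical score as a covariate, so its sign depended on that setting. Htr1a, Htr1b, Htr1d, Htr1f, Htr6 and Htr7 had log2 fold changes between -0.23 and 0.17 (adjusted p 0.697 to 0.97). With the cortical score Htr7 went from -0.21 to 0.14, Htr1f from 0.17 to -0.11 and Htr1b from -0.02 to 0.02. Htr1a went from -0.03 to 0.09 with the septum score and to 0.03 with the choroid plexus score. In all, 3 of the 10 fold changes were positive and 7 negative, a split that depended on these signs, with a median of -0.047, against -0.0067 over all genes. Htr1b, the most abundant receptor per kilobase of exon, had an interval of the fold of 0.827 to 1.18.

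The third comparison asked whether the response to amphetamine differed between the lines. In edgeR's quasi-likelihood test 0 of the 10 receptors and 0% of all genes passed. At an unadjusted p under 0.05 it gave 0 receptors against 2.97% of all genes, and DESeq2, the likelihood-ratio test and limma-voom called 0 of the 10 as well. The smallest p among the receptors was 0.134, for Htr5a. Its log2 fold change after amphetamine was 0.30 in High-Active mice alone (adjusted p = 0.607) and 0.11 in Control mice alone (adjusted p = 0.757), and the difference of the responses in the joint model was 0.20 (95% confidence interval -0.07 to 0.46, adjusted p = 1). Htr4 had a difference of -0.34 (-1.05 to 0.37), which was -0.03 with the cortical score. Htr2a had one of -0.27 (-0.84 to 0.30) and Htr1b of -0.23 (-0.74 to 0.29). With the septum score these were -0.58 and -0.57 (adjusted p = 0.851 for both in edgeR's quasi-likelihood test). That fit was chosen after seeing the data. Both were past an unadjusted p of 0.05 in it, and the share of all genes past it in that fit is not given here. The intervals were wide for Htr1d (-0.87 to 1.00) and Htr7 (-0.87 to 0.76), so differences of the responses within these bounds were not detectable here. Signs were split evenly, 5 positive and 5 negative, though Htr1f, Htr6 and Htr7 changed sign with either the cortical or the septum score alone and Htr1a with the septum score, with a median of -0.0057 for the receptors and 0.0012 for all genes.

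**Figure D4:**
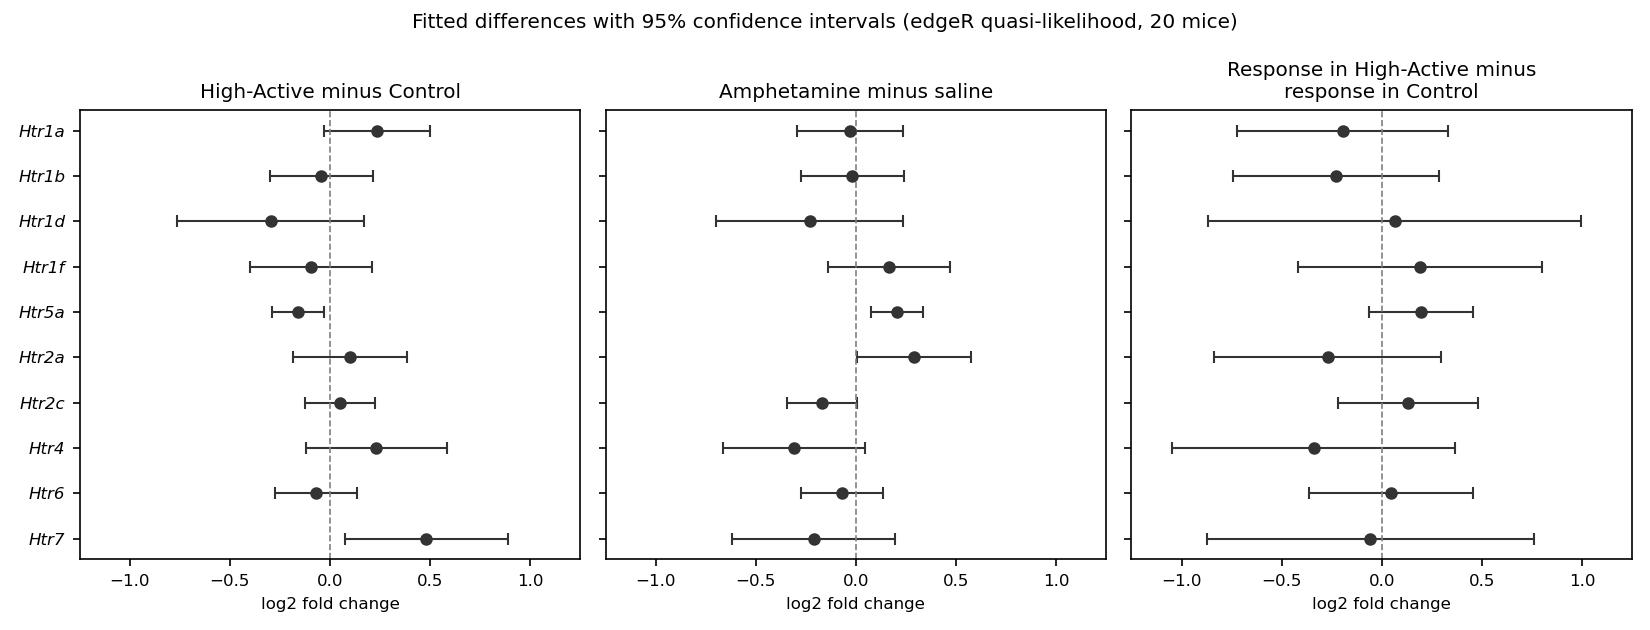
Log2 fold changes with 95% confidence intervals of the 10 serotonin receptor transcripts for line (left), amphetamine (middle) and the response in High-Active minus that in Control mice (right), with a dashed line at 0. The intervals of Htr5a and Htr7 for line and of Htr5a and Htr2a for amphetamine leave out 0 before adjustment, and each interval of the right panel holds 0.

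Of the 4 other serotonin receptor genes that were looked up, only Htr3a, a subunit of the serotonin-gated cation channel, passed the threshold on low values. Htr3a averaged 1.57 ± 0.494 CPM in Control saline, 1.90 ± 0.243 in Control amphetamine, 2.07 ± 0.228 in High-Active saline and 2.78 ± 0.456 in High-Active amphetamine mice (SD, n = 5 per group). It was higher in High-Active mice, with a log2 fold change of 0.47 (SE 0.13, adjusted p = 0.0309 in edgeR's quasi-likelihood test). The other 3 were near the detection limit in each group. Htr5b averaged 0.358 CPM, Htr2b 0.083 CPM and Htr3b 0.0294 CPM over the 20 mice, and Htr2b and Htr3b had no read in some mice.

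The genes that make, carry and degrade serotonin did not pass in any comparison. Of 13 such genes 10 were tested, and 0 were called for line, amphetamine or their interaction. Over all genes tested 14.5% were called for line and 0% for amphetamine and for the interaction. Line log2 fold changes of the list lay between -0.13 and 0.37 with a median of 0.078, and amphetamine ones between -0.86 and 0.09. Tph1, Tph2 and the serotonin transporter Slc6a4 lay under the threshold on low values, with Tph2, the neuronal enzyme of serotonin synthesis, at 9 to 42 reads per mouse. Downstream of the receptors, 6 genes were called between the lines and 0 after amphetamine or in the interaction. Among 9 genes of the Gi/o arm, 1 was called: Gnaz, a Gi-family alpha subunit, was lower in High-Active mice (log2 fold change -0.17, SE 0.05, adjusted p = 0.0563). In the Gq arm Plcb4, a phospholipase C, was higher (0.28, SE 0.09). Among 13 genes of the Gs arm 2 were called and both were lower: the adenylyl cyclases Adcy1 (-0.49, SE 0.15) and Adcy9 (-0.29, SE 0.08). Adcy1 averaged 362 CPM in Control saline, 448 in Control amphetamine, 221 in High-Active saline and 373 in High-Active amphetamine mice. Its amphetamine log2 fold change was 0.53 (adjusted p = 0.204 in edgeR's quasi-likelihood test). Adcy9 (0.34) and Gnaz (0.10), also lower in High-Active mice, had positive amphetamine log2 fold changes too. So had Plcb4 (0.10) and Fyn (0.02), which were higher in High-Active mice. The cortical markers had medians of -0.74 for line and 0.87 for amphetamine, and their part in the values of these genes was not tested. Among 9 receptor partners and editing enzymes 1 was called: Fyn, a tyrosine kinase, was higher by a log2 fold change of 0.09 (SE 0.03). The medians of the Gi/o, Gq, Gs and partner lists were -0.042, -0.042, -0.041 and -0.022, against -0.00093 over all genes. In all 6 of the 40 genes of these lists (15%) were called between the lines, near the 14.5% of all genes.

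Receptor levels had no common sign of correlation from mouse to mouse. With group means removed from log2 CPM, 19 of the 45 pairs correlated positively over the 20 mice, with a median Pearson r of -0.060. The points of a pair share their library, depth and dissection. The highest values were 0.75 for Htr1a with Htr7, 0.75 for Htr1f with Htr6 and 0.67 for Htr2c with Htr7. The lowest was -0.79 for Htr6 with Htr7, and Htr1f with Htr7 was at -0.63. Htr1d was between -0.22 and 0.15 with each other receptor.

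**Figure D5:**
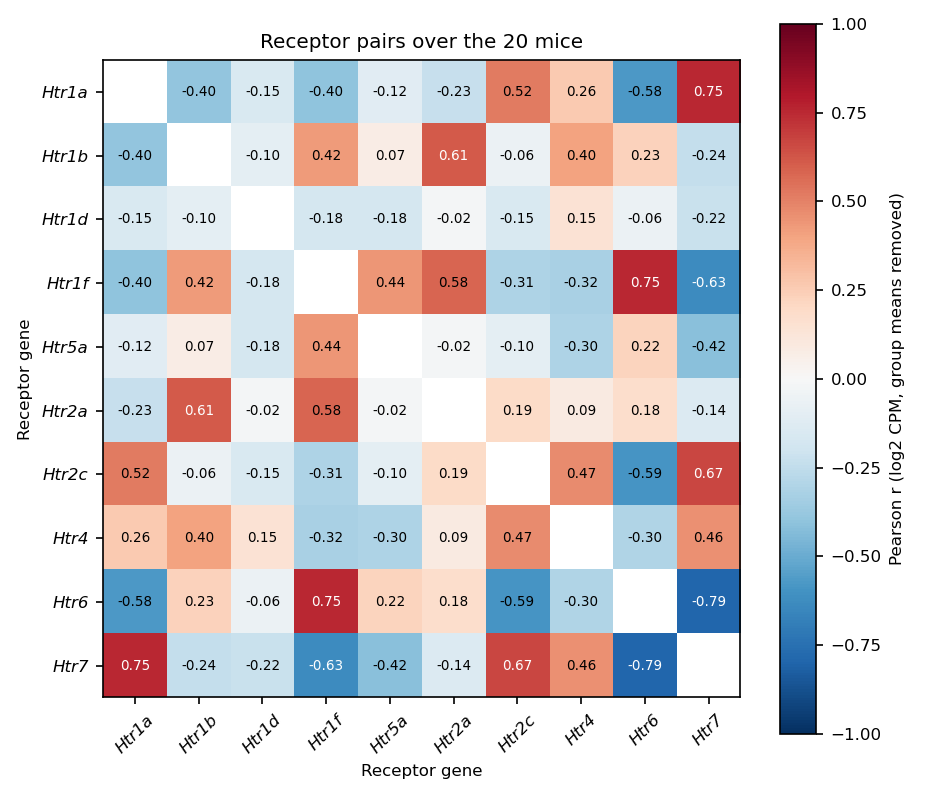
Pearson r of log2 CPM with group means removed for each pair of the 10 serotonin receptor transcripts over the 20 mice, from blue (negative) to red (positive). Htr7 is at 0.75 with Htr1a and 0.67 with Htr2c and at -0.79 with Htr6.

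For each receptor the genes with the most similar levels over the 20 mice were sought among 14649 named genes, again with group means removed. For Htr7 these were Tox2 (r = 0.96), Calb2 (r = 0.95), which encodes the calcium-binding protein calretinin, and B630019K06Rik (r = 0.95). For Htr1b they were Ankrd17 (r = 0.93) and the histone demethylase genes Kdm7a (r = 0.92) and Kdm5c (r = 0.90), and for Htr1a Dner (r = 0.91), Bscl2 (r = 0.91) and Polr2m (r = 0.88). Htr5a was nearest to Ccser2 (r = 0.80), App (r = 0.79) and Abcd2 (r = 0.78). The top gene was Exoc5 for Htr2a (r = 0.87), Zfp105 for Htr2c (r = 0.85), Mirg for Htr4 (r = 0.82), Gas7 for Htr6 (r = 0.85), Ogfrl1 for Htr1f (r = 0.87) and Acat3 for Htr1d (r = 0.75).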

How the data were processed

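RNA from the striatum of 20 mice was sequenced as paired reads on an Illumina HiSeq. The authors processed the reads with CASAVA 1.8.2, aligned them to GRCm38 with TopHat2 2.0.10, Bowtie2 2.1.0 and SAMtools 0.1.19, and assigned them to Ensembl genes by HTSeq 0.6.1. The deposited values are raw counts per gene and mouse. The kit keeps strand, but the strand setting of the counting is not given in the sources used here. Rows naming no gene held 16% to 17.5% of the counts of a mouse and were left out.

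Genes with more than 1 CPM in at least 3 mice (14792 of 26116 with a count) were scaled by TMM and tested with edgeR 4.0.16 (quasi-likelihood, a mean for each of the 4 groups, R 4.3.3), with Benjamini-Hochberg adjustment over all genes within each comparison and a threshold of 0.1. TMM factors were between 0.97 and 1.03. The quasi-likelihood test stood in for the likelihood-ratio test of the methods, which was run as an alternative beside DESeq2 1.42.0, limma 3.58.1, RLE size factors, other thresholds on low counts, family blocks, marker scores as covariates, subsets of mice and each mouse left out. Counts and shares of genes called are those of these fits and were not matched to the counts of the study. The code was tested on simulated data. Fold changes carry a 95% confidence interval from the fit, which covers the spread between mice. Levels per kilobase used exon lengths of GENCODE M21 on GRCm38. Log2 CPM used a prior count of 2. Replicates were numbered in accession order and are separate mice, some of one family.

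Each of the 10 receptors was named whether or not it passed. Genes of the pathway lists were named if they passed in a comparison, except 1 that is not reported here, and the 3 most similar genes by Pearson r were sought for each receptor. The receptors and the lists were chosen with earlier results of these data known.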

Additional observations from a re-analysis of the deposited data

Results flagged for a closer look

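In 4 of the 40 sets of 5 mice (10 receptors in 4 groups), the highest or lowest mouse stood apart from the nearest of the others by more than 0.71 of the whole range of its group (Dixon's ratio). Chance gives this in about 1 of 20 such sets. Htr5a was at 16.5 CPM in Control saline replicate 5, where the next mouse was at 13.5 CPM, and at 16.9 CPM in High-Active amphetamine replicate 1, where the next was at 14.0 CPM. Without Control saline replicate 5 the line log2 fold change of Htr5a was -0.12 (adjusted p = 0.202 in edgeR's quasi-likelihood test), and without High-Active amphetamine replicate 1 it was -0.20 (adjusted p = 0.0418). Htr1a was at 9.80 CPM in High-Active amphetamine replicate 5, where the next mouse was at 13.8 CPM. Htr2c was at 69.5 CPM in High-Active amphetamine replicate 4, where the next was at 97.8 CPM, and without that mouse its amphetamine log2 fold change was -0.13 (adjusted p = 0.568). The cause was not tested.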

How the results depend on the processing

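Of the 360 receptor fold changes computed under the other settings 316 kept their sign, and of the 600 with a mouse left out 571 did. The receptors called were 2 for line and 1 for amphetamine with DESeq2 and 1 for line with the likelihood-ratio test, and 0 to 2 for line with each mouse left out. Genes called between the lines numbered 2149 in the main test, 410 with the cortical score, 846 with the septum score, 350 with both, 501 in saline mice alone, 117 in amphetamine mice alone and 1381 to 2535 with each mouse left out. The lowest count came without High-Active amphetamine replicate 2, and Control saline replicate 5 (1400) and High-Active saline replicate 4 (1405) also lowered it by over 1.5 times. For amphetamine 0 genes became 391 with DESeq2, 458 with the likelihood-ratio test, 1 with family as a fixed block and 0 to 339 with each mouse left out (339 without High-Active amphetamine replicate 2, 128 without Control saline replicate 1, 33 without High-Active saline replicate 1, 20 without Control saline replicate 5 and 3 without Control amphetamine replicate 5). For the interaction 0 became 6 with the likelihood-ratio test, 1 with the fixed block and 0 to 1 with each mouse left out (1 without Control saline replicate 1). The causes were not tested, and the subsets also held fewer mice. Comparing treatments within families, which pairs full siblings in 2 Control and 4 High-Active families, gave an amphetamine log2 fold change of 0.22 for Htr5a (adjusted p = 0.976 in edgeR's quasi-likelihood test, 0.20 without the block). Each family belonged to a single line, so this fixed block gave no line test. Family as a random block (consensus correlation 0.026) was fitted in each comparison. With either block 0 receptors were called, and the main test had no receptor call that a block could remove. Replicate numbers follow accession order and pair no mice. The lowest count of any of the 10 receptors in a mouse was 67 reads, for Htr1f.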
